A study of Mus musculus with 28 samples.

Results

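mmu-miR-101a-3p and mmu-miR-101b-3p, written here as miR-101a-3p and miR-101b-3p, are the 2 measured 3′ mature products of the mouse miR-101 family, out of 1408 miRNA names in the series. They were chosen by name, because an earlier look at these data had found miR-101a-3p lower in sperm of alcohol-exposed wild type mice and of mice lacking Nrf2 in the liver. The values that chose them are therefore given as a description, with no test. miR-101a-3p was listed in all 3 deposited count tables. miR-101b-3p was listed in 1 of them, the table of the floxed and liver knockout mice, and the other 2 tables gave a miRNA row under the precursor name mir-101b. That row is described beside miR-101b-3p as the miR-101b row, and whether it holds the same reads was not tested.

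The data are small RNA reads from mouse sperm in 28 libraries, prepared from Trizol-extracted total RNA with the Qiaseq small RNA kit. In the table of wild type (WT) mice there were 4 control libraries without alcohol, 4 at a low, 2 at a medium and 2 at a high dose of alcohol. The Nrf2-/- table held 4 control and 4 ethanol libraries, all from mice without Nrf2, a transcription factor that switches on antioxidant genes. The last table held 4 libraries from mice with floxed Nrf2 (Nrf2 flox) and 4 from mice with floxed Nrf2 and Albumin-Cre (Nrf2 liver KO), a Cre driven by the promoter of a hepatocyte gene. The sources used here do not state the strain, the ages, the amounts of alcohol or whether each library came from 1 animal, so p-values measure the spread between libraries only.

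Counts per library ran from 1993933 to 11119711 in the WT table, from 3922109 to 6448390 in the Nrf2-/- table and from 2567463 to 4394714 in the flox and liver KO table. Of these, 227577 to 2744712 per library were miRNA counts. WT control 1 stood apart, with 75.8% of its counts on structural RNA. All 12 sperm and spermatid marker genes had exon reads in each table, and their summed exons ranged from 196 to 1081 CPM over the libraries, where CPM is a count scaled to a common library total, here that of all classes. Exons of Nfe2l2, the gene of Nrf2, held 4 to 47 reads per library in WT, 0 to 20 in Nrf2-/-, 9 to 20 in flox and 0 to 22 in liver KO. The deleted part of the gene is not given in the labels, so these reads do not check the genotypes.

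miRNAs are short RNAs that guide Argonaute proteins to messenger RNAs, mainly by pairing of bases 2 to 8, the seed. miR-101 is best known for repressing Ezh2, the enzyme of the Polycomb complex that methylates histone H3, and it also targets transcripts such as Mcl1, Dnmt3a, Fos and Ptgs2. Sperm take up small RNAs from the epididymis, the duct in which they mature, so a sperm library can hold miRNAs of both germ cell and epithelial origin.

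The mature sequences are shown because the members differ in their seeds and because some names in the family share nearly all of their bases. They are from RefSeq (GRCm38.p6), written 5′ to 3′ with the seed in capitals.
miR-101a-3p: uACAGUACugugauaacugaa
miR-101b-3p: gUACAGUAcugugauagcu
miR-101c: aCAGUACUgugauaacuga
miR-144-3p: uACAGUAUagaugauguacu
The annotated miR-101b-3p starts 1 base upstream of the place where miR-101a-3p starts, so the seeds are ACAGUAC for miR-101a-3p and UACAGUA for miR-101b-3p. Among 1738 mature mouse miRNAs in the RefSeq table, 1 name carries each of these seeds. The stretch of the miR-101b hairpin that aligns with miR-101a-3p differs from it by 1 substitution, A16G, counted from the 5′ end of miR-101a-3p. That stretch, with the differing base in capitals, is
miR-101b hairpin: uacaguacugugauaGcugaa
miR-101c, at chr9:3038680-3038698 on the minus strand, lies whole inside miR-101a-3p from its base 2, so reads of miR-101c cannot be told from shortened miR-101a-3p. miR-144-3p, of a red blood cell miRNA gene, shares its first 7 bases with miR-101a-3p.

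The miR-101a hairpin lies at chr4:101346945-101347027 on the minus strand, and miR-101a-3p takes up chr4:101346957-101346977. It overlaps an exon of E130102H24Rik in GENCODE vM21, and the nearest protein-coding gene, Ak4, is 72250 bases away. The miR-101b hairpin lies at chr19:29135279-29135375 on the plus strand, with miR-101b-3p at chr19:29135338-29135356. It lies in an intron of Rcl1, a gene of ribosomal RNA processing, and overlaps no exon of it. The sources used here name no build for the count tables, so these positions belong to the reference.

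miR-101a-3p was highest in floxed mice and WT controls and had at most 39 reads in any library of the Nrf2-/- table. Levels are given as CPM of miRNA counts after TMM scaling within a table, and levels from different tables were scaled separately. Mouse line and table go together, so a difference between tables cannot be told from a difference in counting or row names. By group mean, the order was Nrf2 flox (946 CPM ± 327, SD, n = 4), WT control (873 CPM ± 280, SD, n = 4), Nrf2 liver KO (380 CPM ± 218, SD, n = 4), WT high dose (310 CPM ± 185, SD, n = 2), WT medium dose (242 CPM ± 216, SD, n = 2), WT low dose (147 CPM ± 53.8, SD, n = 4), Nrf2-/- control (6.73 CPM ± 7.11, SD, n = 4) and Nrf2-/- ethanol (3.504 CPM ± 2.54, SD, n = 4). Neighbours in this order overlapped in their libraries, except WT low dose and Nrf2-/- control, which came from different tables.

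**Figure D1:**
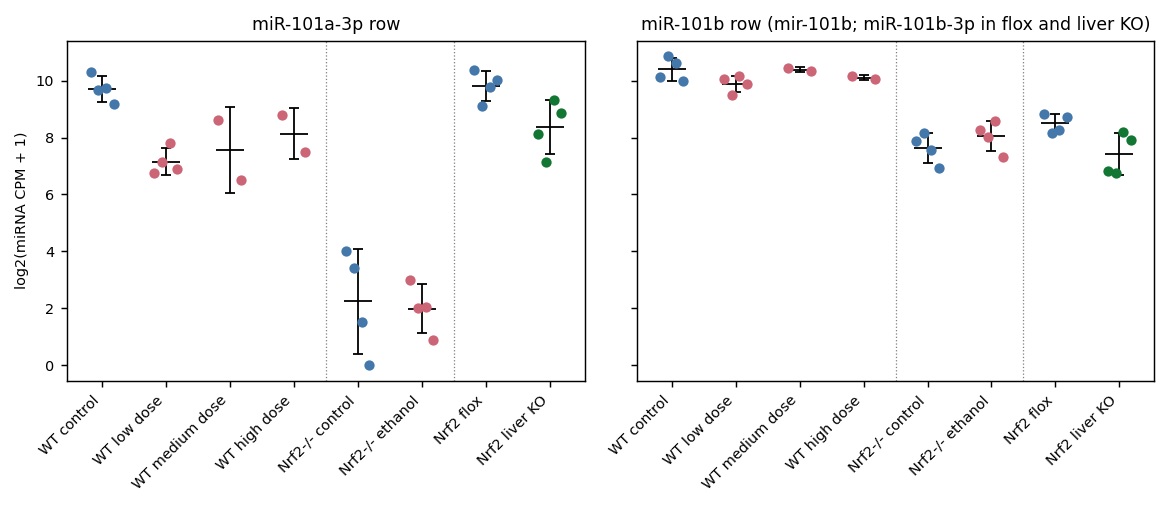
Levels of the miR-101a-3p row (left) and of the miR-101b row (right) on the log2(CPM + 1) scale in each of 28 libraries. Points are libraries, the black dash and bar are the mean and SD of these log2 values, and dotted lines part the 3 tables, which were scaled separately. The miR-101a-3p points of the Nrf2-/- table lie below all others, and their mir-101b points lie below those of every WT library. Genotype and table cannot be told apart there. The miR-101b points of the flox and liver KO table are a differently named row.

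In the WT table, miR-101a-3p was at 1255, 806, 849 and 583 CPM in WT controls 1 to 4, from 543, 914, 203 and 1181 reads. At low dose it was at 106, 140, 225 and 118 CPM in libraries 1 to 4, from 83 to 264 reads. All 4 low-dose libraries were below every control, and how many other miRNAs did the same was not counted. The log2 change was -2.56 (SE 0.56), a 5.92-fold lower level, against a median of -0.13 over the 338 miRNAs tested. It ranked 6 from the lowest of these 338.

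At medium dose miR-101a-3p was at 394 CPM in library 1 and 89.2 CPM in library 2, a log2 change of -1.85 (SE 0.71). At high dose it was at 441 CPM in library 1 and 179.6 CPM in library 2, a log2 change of -1.49 (SE 0.69). All 4 of these libraries were below every control on this scale, and within each dose the libraries differed more than 2-fold. Each of these changes ranked 31 from the lowest of 338, inside the 5th to 95th percentile of all tested miRNAs. How many other miRNAs had all libraries of a dose below every control was not counted. Without WT medium dose 1 the medium-dose value was -3.11, and without WT medium dose 2 it was -1.06. Without WT high dose 1 the high-dose value was -2.24. On the scale of all counts, WT control 1 was at 48.8 CPM, below the 75.8 CPM of medium dose 1 and the 55.9 CPM of high dose 1, so the groups overlapped there.

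The miR-101b row of the WT table was lower by less. It was at 1114, 1857, 1582 and 1021 CPM in WT controls 1 to 4 and at 1065, 728, 1135 and 932 CPM in low-dose libraries 1 to 4. On this scale low-dose libraries 1 and 3 lay inside the control range. The log2 change was -0.53 (SE 0.33), which ranked 112 from the lowest of 338. At medium dose the row was at 1391 and 1289 CPM (log2 change -0.06, SE 0.40) and at high dose at 1146 and 1057 CPM (log2 change -0.34, SE 0.41), all inside the control range on this scale. The lowest control, WT control 4, had a TMM factor of 1.99. In CPM of miRNA counts without TMM, controls ran from 1017 to 2020 CPM, with control 4 the highest. There, low-dose library 1 (916 CPM) and high-dose library 2 (915 CPM) also lay below every control, and the means were 883 CPM at low dose and 1656 CPM in controls. With the reads of both rows summed, the low-dose log2 change was -1.12 (SE 0.35), less than that of miR-101a-3p alone.

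Other RNAs moved in the same WT libraries. Summed exons of 7 red blood cell genes ran from 34.9 to 63.8 CPM at low dose and from 1.89 to 13.5 CPM in controls. Summed exons of the 28 epididymis genes, of which Lcn9, Lcn10, Cst11 and Teddm1 had no reads in this table, ran from 149 to 410 CPM at low dose, from 227 to 626 CPM in controls, from 99.4 to 534 CPM at medium dose and from 298 to 1855 CPM at high dose. With these epididymis exons as a covariate, the log2 change of miR-101a-3p was -2.38 at low, -1.82 at medium and -2.04 at high dose. The part of red blood cell RNA in the difference was not tested. In such bulk RNA, fewer cells of a type and less RNA per cell cannot be told apart.

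**Figure D2:**
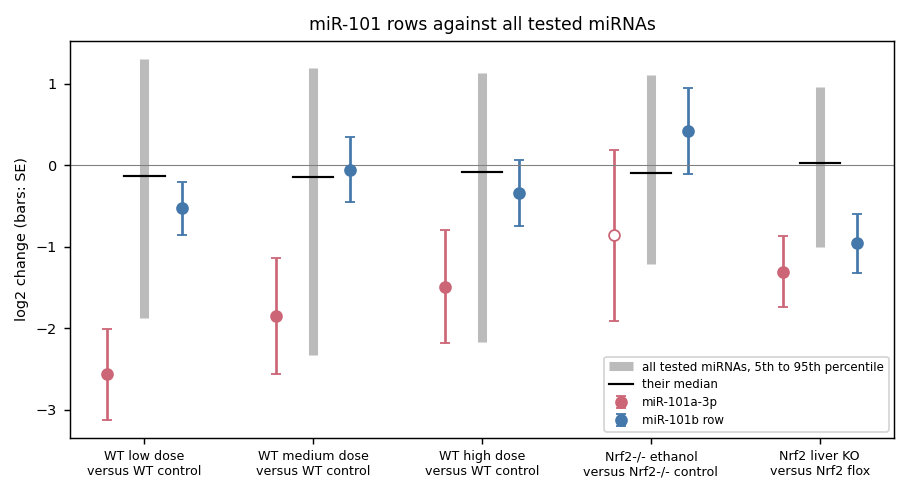
log2 change of miR-101a-3p (red) and of the miR-101b row (blue) in 5 comparisons, with bars of 1 SE. The grey bar spans the 5th to 95th percentile of all tested miRNAs and the black dash is their median. The open point did not pass the filter on low counts, and miR-101a-3p lies below the grey bar at low dose and in liver KO.

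In liver KO sperm both members were lower than in floxed controls. miR-101a-3p was at 1333, 548, 871 and 1032 CPM in flox libraries 1 to 4 and at 276, 142, 642 and 459.6 CPM in liver KO libraries 1 to 4. On this scale only liver KO 3 lay above the lowest flox library, flox 2. On the scale of all counts both liver KO 3 and liver KO 4 lay above flox 2, again the lowest. The log2 change was -1.31 (SE 0.44), a 2.47-fold lower level, which ranked 5 from the lowest of 295 miRNAs tested (median 0.03).

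miR-101b-3p was at 457, 284, 308 and 422 CPM in flox libraries 1 to 4, from 196 to 378 reads. In liver KO libraries 1 to 4 it was at 112, 107, 289 and 238 CPM, from 45, 31, 192 and 234 reads. Liver KO 3 again lay above the lowest flox library. On the scale of all counts liver KO 3 and 4 (55.7 and 54.1 CPM) both lay above the lowest, flox 3 (46.2 CPM). Liver KO libraries 1 and 2 were the lowest for both members. These 2 libraries also had the most structural RNA of the table, 44.3% and 43.3% of counts against 29.4% to 38.9% in the others, and TMM factors of 0.751 and 0.781 against 0.978 to 1.15. The part of this make-up in the difference was not tested. The log2 change was -0.96 (SE 0.36), which ranked 20 from the lowest of 295.

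Epididymal exons were lower in the same comparison. Crisp1, a sperm-coating protein secreted by the epididymis, was at 463 to 477 CPM in the 4 flox libraries and at 150, 222, 386 and 114 CPM in liver KO libraries 1 to 4. Summed exons of the epididymis list ran from 639 to 830 CPM in flox and from 163 to 522 CPM in liver KO, with 7 of its 28 genes at 0 in the table (Lcn10, Cst11, Spag11b, Defb20, Defb41, Bsph1 and Teddm1). With this sum as a covariate the log2 changes were -0.85 (SE 0.75) for miR-101a-3p and -0.61 (SE 0.64) for miR-101b-3p, and both SE were larger. The sum did not overlap between the groups, so these fits cannot tell it from genotype, and the part of epididymal RNA was not tested. Summed exons of the 8 smooth muscle and fibroblast genes, all with reads in the table, also ran lower, from 105 to 174 CPM against 164 to 357 CPM. The part of stromal RNA in the difference was not tested. Sperm and spermatid exons did not run lower: they summed to 745 to 861 CPM in liver KO and 607 to 795 CPM in flox.

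The Nrf2-/- table holds the alcohol comparison that did not enter the choice of members. miR-101a-3p had 39, 28, 2 and 0 reads in Nrf2-/- controls 1 to 4 and 19, 7, 5 and 1 reads in ethanol libraries 1 to 4. The count of 0 in control 4 allows up to 2.09 CPM, by a floor of 3 counts. The row did not pass the filter on low counts, so it has no adjusted p. Its mean was 3.504 CPM ± 2.54 (SD, n = 4) with ethanol and 6.73 CPM ± 7.11 (SD, n = 4) in controls, and the groups overlapped (exact two-sided permutation p = 0.486, adjusted p = 0.486 over 3 quantities, smallest possible p 0.0286). The miRNA depth of these libraries was 844062 to 2744712 counts, lowest in control 3. It was 227577 to 1619742 in the WT table and 371267 to 857599 in the flox and liver KO table. The few reads and the spread among controls leave the difference unresolved. The log2 change in a fit with no filter was -0.86 (SE 1.05), and adding the epididymis exon sum to the fit turned its sign, to 0.16 (SE 0.75). That sum ran from 40.8 to 1657 CPM in controls and from 189.7 to 453 CPM with ethanol, with Crisp4, Cst11, Defb41, Bsph1 and Teddm1 at 0. Summed sperm and spermatid exons ran from 196 to 1081 CPM in controls and from 242 to 336 CPM with ethanol. The part of this make-up in the difference was not tested.

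The miR-101b row of the Nrf2-/- table had 175 to 841 reads per library and passed the filter. It was at 237, 285, 189 and 122 CPM in controls 1 to 4 and at 308, 260, 386 and 160 CPM in ethanol libraries 1 to 4. The groups overlapped, and the log2 change was 0.42 (SE 0.53; adjusted p = 0.999 by edgeR's quasi-likelihood test with Benjamini-Hochberg adjustment). An exact permutation test on the group means, two-sided, gave p = 0.286 (adjusted p = 0.486). edgeR called 0 of 237 miRNAs in this comparison (0%), 3 had an unadjusted p under 0.05 and DESeq2 called 0. The absence of edgeR calls was shared by the other comparisons, with 0 of 338 miRNAs at each WT dose and 0 of 295 in liver KO. There DESeq2 called 24 at low, 7 at medium and 7 at high dose and 0 in liver KO. The difference between the Nrf2-/- and WT responses was not tested.

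The share of the miR-101b row among the reads of both rows does not depend on scaling. In WT controls 1 to 4 it was 47.0%, 69.7%, 65.1% and 63.7%, with 95% Wilson intervals that together run from 44.0% to 71.4% and cover counting error only. In low-dose libraries 1 to 4 it was 90.9%, 83.9%, 83.4% and 88.7%, above every control. Medium-dose libraries held 77.9% and 93.5%, and high-dose libraries 72.2% and 85.5%, again above every control. This share rests on the same WT libraries that chose miR-101a-3p and has no test. How many other pairs of miRNAs have shares that part these groups was not counted.

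In the Nrf2-/- table the miR-101b row made up 93.9% to 100% of these reads in controls and 97.8% to 99.5% with ethanol. The 100% of control 4 stands for 175 of 175 reads (95% Wilson interval from 97.9%). The difference of means was 1.41 percentage points (exact two-sided permutation p = 0.400, adjusted p = 0.486 over 3 quantities). In the flox and liver KO table, where the row is the mature miR-101b-3p, its share was 25.5% to 34.1% in flox and 28.8%, 43.1%, 31.1% and 34.2% in liver KO libraries 1 to 4. These ranges overlapped, and liver KO 2, the highest, rested on 72 reads (95% Wilson interval 32.3% to 54.6%). Both members were thus lower in liver KO, with shares that overlapped between the groups.

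**Figure D3:**
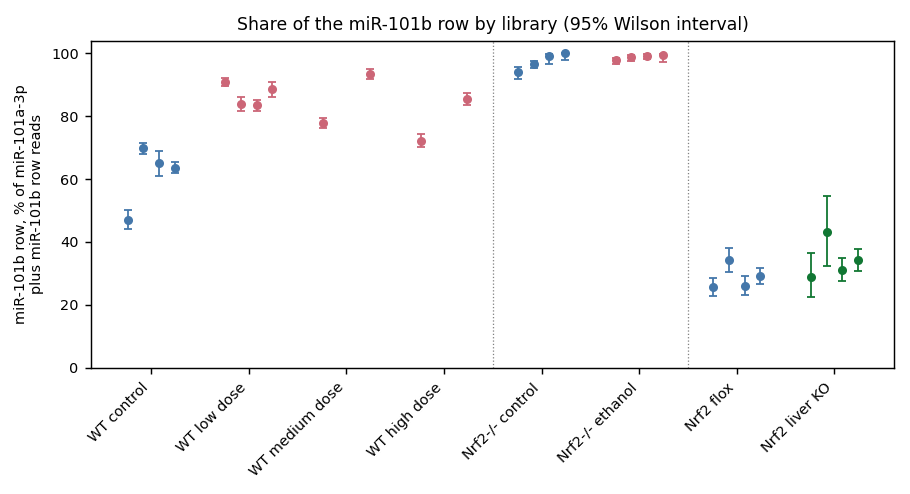
Reads of the miR-101b row as a percent of the reads of miR-101a-3p and the miR-101b row in each of 28 libraries, with 95% Wilson intervals. The row is mir-101b in the WT and Nrf2-/- tables and miR-101b-3p in the flox and liver KO table, parted by dotted lines. All 8 alcohol libraries of the WT table lie above its 4 controls. The same libraries chose miR-101a-3p, and how many other pairs of miRNAs part likewise was not counted.

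The tables also have a hairpin class, with a row mir-101b in each of them, which allows a look across tables under 1 name. In CPM of all counts, this row ran from 26.2 to 196 in WT controls and from 74.4 to 143.5 at low dose, so the groups overlapped (log2 change -0.22, SE 0.36). It ran from 36.1 to 105 in Nrf2-/- controls and from 28.2 to 123 with ethanol (log2 change 0.93, SE 0.56; edgeR adjusted p = 0.767). In flox it ran from 113 to 240 and in liver KO from 25.8 to 160 (log2 change -0.65, SE 0.35). The hairpin row mir-101a held 0 to 4 reads per library. Where listed, the miRNA rows mir-101a and miR-101a-5p held 0 to 3 reads, and the exon of miR-101c in the WT table held 0 to 1.

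Whether miR-101a-3p followed epididymal reads inside groups was asked with Crisp1 exons, as deviations of log2(CPM + 1) from group means. Over 28 libraries Pearson's r was 0.704 (permutation p = 0.0403, adjusted p = 0.292 over 8 relations) and Spearman's rho was 0.529 (permutation p = 0.0643, adjusted p = 0.241). The relation did not pass the adjustment. Deviations had the same sign in 20 of 28 libraries, among them all 4 Nrf2-/- controls and all 4 flox libraries. They did in 3 of 4 low-dose, 2 of 4 WT control, 2 of 4 liver KO and 1 of 4 Nrf2-/- ethanol libraries. The medium-dose and high-dose libraries were also among the 20, but with 2 libraries per group their deviations mirror each other. Deviations within a group sum to 0, so these signs are not independent and were not tested.

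The pooled value rested on few libraries. Its unadjusted p rose above 0.05 when any 1 of 10 libraries was left out: WT low dose 3, either medium-dose or high-dose library, any Nrf2-/- control or liver KO 3 (r from 0.543 to 0.700). In the dose groups of 2, leaving out 1 library sets the deviation of the other to 0, so these omissions removed what the whole group added. Nrf2-/- controls 1 and 2 had 933 and 921 CPM of Crisp1 exons, and controls 3 and 4 had 29.8 and 10.1 CPM. These same libraries had 39 and 28 against 2 and 0 reads of miR-101a-3p. They also differed in sperm and spermatid exons, at 196 and 245 CPM against 847 and 1081 CPM. Their miRNA counts were 41.3% and 46.2% of all counts against 21.5% and 22.7%. The part of this make-up in the relation was not tested. Without controls 1 and 4, the 2 libraries farthest from the median, r was 0.479, and without all 4 Nrf2-/- controls it was 0.303 (permutation p = 0.388). Within tables, r was 0.576 in WT (12 libraries, exact permutation p = 0.370), 0.835 in Nrf2-/- (8 libraries, exact permutation p = 0.123) and 0.190 in flox and liver KO (8 libraries, exact permutation p = 0.715). In WT controls the order depended on the scale: control 1, with the least Crisp1 at 132 CPM, had the highest miR-101a-3p after TMM scaling and the lowest on the scale of all counts (48.8 CPM, against 102 to 156 CPM). The 4 flox libraries differed little in Crisp1 while their miR-101a-3p differed by more than 2-fold.

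**Figure D4:**
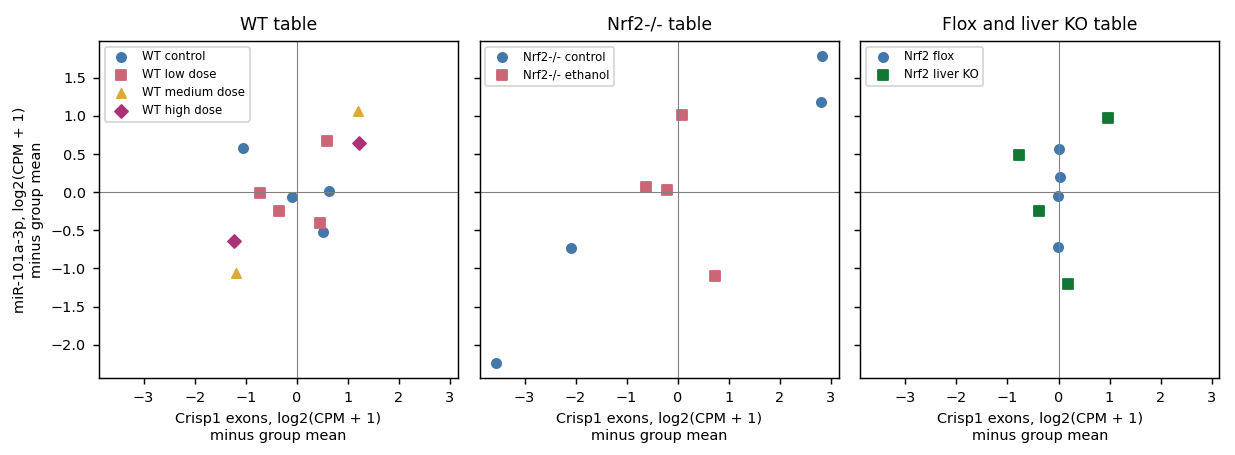
Deviation of each library from its group mean in Crisp1 exons (horizontal) and in miR-101a-3p (vertical), both on the log2(CPM + 1) scale, for the 3 tables. The Nrf2-/- controls (blue, middle) span the widest range on both axes, and the flox libraries (blue, right) lie on a vertical line.

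The miR-101b row did not pass the adjustment either. For mir-101b over the 20 libraries of the WT and Nrf2-/- tables, r with Crisp1 exons was 0.483 (permutation p = 0.0929, adjusted p = 0.292) and rho was 0.459 (permutation p = 0.0903, adjusted p = 0.241). It was 0.376 within WT and 0.523 within Nrf2-/- (exact permutation p = 0.146 and 0.241), and 0.267 without Nrf2-/- controls 1 and 4. For miR-101b-3p over 8 libraries r was 0.272 (exact permutation p = 0.710) and turned to -0.68 without liver KO 3.

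The miRNAs whose deviations from group means were most like those of miR-101a-3p, among 175 that passed the filter in all tables, were miR-29c-3p (Pearson r = 0.924 over 28 libraries), miR-21a-5p (0.903), miR-148a-3p (0.895), miR-200a-3p (0.884) and miR-29b-3p (0.861). miR-200a-3p is an epithelial miRNA, and the miR-29 family is known to target collagen transcripts. For mir-101b over 20 libraries they were miR-29a-3p (0.717), miR-29b-3p (0.680), miR-200a-3p (0.672), miR-148a-3p (0.672) and miR-34b-5p (0.661). For miR-101b-3p over 8 libraries they were miR-669a-3p and miR-669o-3p (both 0.911, names that reads may not separate), miR-21a-5p (0.902), miR-151-5p (0.881) and miR-17-5p (0.873). The points share library, depth and scaling factor, so these values are descriptions.

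Exon reads of 22 known miR-101 target genes were sparse in these libraries, except those of Ptgs2. In the edgeR fits Ptgs2 averaged 123 CPM in WT, 244 CPM in flox and liver KO and 414 CPM in Nrf2-/-. The other tested targets averaged at most 39.4 CPM. At low dose 20 were tested, 9 lower and 11 higher, with a median log2 change of 0.03 against 0.00 over all 17937 features other than miRNAs and -0.12 over exons. Of these 20, 0 passed at low, medium or high dose, where 0.0613%, 0% and 0% of all such features passed in edgeR, and 0, 0 and 0 had an unadjusted p under 0.05. The medians were -0.21 at medium and 0.22 at high dose, and over exons -0.21 and 0.10. At medium dose App, the amyloid precursor, had a log2 change of -1.11 (SE 0.60), Ptgs2, a prostaglandin synthase, -1.05 (SE 0.64) and Dusp1, a phosphatase of MAP kinases, -0.24 (SE 0.35). At low and high dose App had -0.23 and 0.20, Ptgs2 0.08 and 0.30, and Dusp1 0.05 and -0.18, and none of the 3 had 1 direction at all doses. Mcl1, an anti-apoptotic protein, had 0.15 (SE 0.23) at low dose.

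In liver KO 13 targets were tested, 11 lower and 2 higher, with a median of -0.49 against 0.01 over 9836 features and -0.18 over exons. Of these, 0 passed and 3 had an unadjusted p under 0.05, where 0.0508% of all features passed and 1223 of the 9836 had an unadjusted p under 0.05. Ptgs2 had a log2 change of -0.84 (SE 0.30), and the counting is not stated to use strand, so reads of an antisense transcript cannot be told apart. Mtor, a growth kinase, had -0.95 (SE 0.36), App -0.76 (SE 0.33) and Nlk, a kinase of Wnt signalling, -0.89 (SE 0.48). The 5 tested epididymis genes were also all lower, with a median of -1.22. With the epididymis sum as a covariate the targets' median was -0.19. That sum ran from 163 to 522 CPM in liver KO and from 639 to 830 CPM in flox. The ranges did not overlap, so this fit cannot tell the sum from genotype. The part of epididymal RNA in the targets' difference was not tested.

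With ethanol in Nrf2-/- sperm 12 targets were tested, 11 lower and 1 higher, with a median of -0.43 against -0.27 over 9658 features and -0.49 over exons. Of these, 0 passed and 1 had an unadjusted p under 0.05, where 0% of all features passed (466 had an unadjusted p under 0.05). That gene was Fos, an immediate early transcription factor, at 1.31 (SE 0.47; edgeR adjusted p = 0.767). Prkdc, a DNA repair kinase, was at -0.85 (SE 0.41), Mtor at -0.72 (SE 0.44) and Rab5a, an endosomal GTPase, at -1.08 (SE 0.69). Of the 9 genes that process or carry miRNAs, 9, 6 and 6 were tested in the WT, Nrf2-/- and liver KO fits and 0 passed. Drosha, which cuts hairpins from primary transcripts, had the lowest p of them with ethanol, at -0.99 (SE 0.42; edgeR adjusted p = 0.767).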

How the data were processed

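The authors deposited 3 tables of raw counts per annotated feature, per the file headers 1 column per library. The aligner, the counting tool, the build and how multi-mapping reads were handled are not given in the sources used here. Libraries were grouped by their labels. For 1 library, labelled medium dose 1, the column name begins like those of the high dose. The label was followed.

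The members and gene lists were chosen with earlier results of these data known. miRNAs and all other features, summed per gene or element within a class, were fitted separately per table with edgeR 4.0.16 in R 4.3.3 (filterByExpr, TMM, quasi-likelihood F test, two-sided, Benjamini-Hochberg at 0.05). SE is the log2 change divided by the root of F. The row miR-101a-3p was under the filter in the Nrf2-/- table and its log2 change comes from a fit with no filter. WT groups share 1 fit of 12 libraries, so the groups of 2 borrow the spread of the others. WT control 4 had a TMM factor of 1.99. Exon CPM use all counts. Relations used 100000 permutations within groups, or all of them in single tables, computed with scipy 1.17.1 and numpy 2.4.6. DESeq2 1.42.0 was an alternative. The edgeR fit of miRNAs was tried on simulated counts for the low-dose, Nrf2-/- ethanol and liver KO comparisons, and the other steps were not. Named were all rows of the family, miR-144-3p, the 5 miRNAs most like each member, and up to 4 targets per table with the lowest p and at least 5 CPM, and the lowest miRNA processing gene with ethanol, chosen after its value was seen.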

Additional observations from a re-analysis of the deposited data

How the results depend on the processing

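Of 329 alternative values for 24 results, 304 kept direction and side of the threshold or moved by less than the spread between libraries, where values that passed no test could change sign, as miR-101a-3p did with ethanol in Nrf2-/- (0.16 with the epididymis sum in the fit). With reads of both rows summed, the log2 change of miR-101a-3p moved to -1.12 at low, -0.61 at medium and -0.76 at high dose, as the sum is mostly mir-101b reads. Leaving out 1 library gave -2.998 to -2.30 at low, -3.11 to -1.06 at medium, -2.24 to -1.06 at high dose and -1.68 to -1.0 in liver KO. With no filter 1 miRNA, miR-466e-3p, was called in the Nrf2-/- comparison, against 0. The r of miR-101a-3p with Crisp1 lost its unadjusted call with libraries above 0 only (0.543), without the high-dose (0.689), the medium-dose (0.679) or the Nrf2-/- control (0.303) libraries, and with 1 library left out ran from 0.543 to 0.778. That of mir-101b passed with all counts as library size (0.576) and without Nrf2-/- ethanol libraries (0.710). With 1 library left out it ran from 0.237 to 0.659, passing without Nrf2-/- ethanol 3 or 4, and over the other settings from 0.033 to 0.710. That of miR-101b-3p ran from -0.680 to 0.811 with 1 library left out. The causes were not tested.

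Replicate numbers did not pair the samples: same-numbered libraries correlated at -0.267 to -0.0642 in WT, -0.0132 to 0.160 in Nrf2-/- and -0.312 to 0.400 in flox and liver KO. With a replicate block the log2 change of miR-101a-3p was -2.50 at low dose and -1.45 in liver KO, -0.32 with ethanol in Nrf2-/- (-0.86 without the block), and the r of miR-101a-3p with Crisp1 was 0.653. The block changed no call among the results refitted with it. The total of all counts as library size shifted the median miRNA by -0.33 in liver KO, where miR-101a-3p was at -1.48 and miR-101b-3p at -1.16. Omitting a group, edgeR with DESeq2 size factors and the target alternatives were chosen after seeing the data. In the Nrf2-/- table miR-101a-3p rests on 0 to 39 reads per library, out of 844062 to 2744712 miRNA counts, so its low share and the spread between libraries limit that comparison.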

Other observations

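miR-144-3p, which shares its first 7 bases with miR-101a-3p, was sparse: it was listed at 0 in all medium-dose and high-dose libraries and reached at most 82.1 CPM, in an Nrf2-/- ethanol library. Its hairpin partner miR-144-5p averaged 142 CPM (SD 39.6) in 4 low-dose libraries against 20.1 CPM (SD 18.5) in 4 WT controls. The groups did not overlap after TMM scaling, but on unscaled miRNA CPM control 4 (90.8) lay above low dose 2 (89.8). It was at 305 CPM ± 237 (SD, n = 4) in flox and 137 CPM ± 94.2 (SD, n = 4) in liver KO, which overlapped. Introns of Rcl1, in which the miR-101b hairpin lies, had 0 to 29 reads per library in all groups, too few to set beside the 31 to 2107 reads of the miR-101b row.

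Row names differed between tables. Precursor names in the miRNA class numbered 339 for WT, 307 for Nrf2-/- and 0 for flox and liver KO. Of 185 mature names at 100 CPM or more in the last, 5 were not listed in the WT table, 3 of them with a precursor-named row, and 13 were not listed in the Nrf2-/- table, 6 of them with such a row.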
